A study of Rattus norvegicus with 18 samples.

Results

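H9C2 cells that had been kept with PE and then given 50 electric pulses were compared with untreated H9C2 cells. H9C2 is an established rat line grown from embryonic heart, and the labels give its cell type as myocardium. The compared libraries are P_ES50 replicates 1 to 3 and NC replicates 1 to 3, which is 6 of the 18 libraries of the series. P_ES50 cells received 50 µmol/L PE for 48 h and then 50 pulses of 100 µs at 1500 V/cm. NC cells received no treatment. PE is named only by these letters in the labels, and it is called PE here. As references, P cells received the same PE without pulses, and ES50 cells received the same 50 pulses without PE, with 3 libraries in each group. ES10 and P_ES10 cells received 10 pulses of the same kind, without PE and with the same PE. Their libraries, 3 in each group, entered the fits that estimate the spread. Poly(A) RNA was sequenced, and the authors deposited FPKM values, which are read numbers divided by gene length and by 1 scaling term per library, for 32545 genes. That term is not the library's total of reads. Of these, 11883 nuclear genes passed a minimum of 1 FPKM in at least 3 of the 18 libraries and were tested. The 34 tested genes of the mitochondrial genome are described apart. The labels number the replicates and do not say whether they were separate cultures. All p-values here therefore rest on how much the 3 libraries of a group differ, and that spread can be a technical one.

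Short high-voltage pulses open pores in cell membranes, and strong pulse trains are used to ablate heart tissue. Cells that survive membrane and mitochondrial injury commonly switch on the antioxidant programme driven by the transcription factor NRF2 and the amino acid and mitochondrial stress programme driven by ATF4. Growth factor and mechanical signals reach the nucleus through immediate early genes, through YAP with its DNA-binding partner TEAD, and through SMAD factors downstream of TGF-beta. Extracellular matrix genes such as the fibrillar collagens are classical outputs of TGF-beta signalling in cardiac cells.

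The number of reads on genes was 14017831 to 16049853 in the NC libraries and 14979183 to 16006346 in the P_ES50 libraries. Reads on nuclear genes numbered 12059244 to 13933169 in NC and 7813779 to 8060502 in P_ES50, where a larger share of reads lay on mitochondrial genes. Replicate libraries of P_ES50 correlated at 0.978 to 0.979 across genes on the log2 scale, and those of NC at 0.985 to 0.986. The deposited scaling leaves the median nuclear gene equal between the groups (median log2 fold change -0.0027). Scaling each library to its total reads on genes moves that median by -0.62, so every nuclear change below is a change relative to the median nuclear gene. In bulk RNA, fewer cells of a type and less RNA per cell cannot be told apart. Of the 10 cardiomyocyte markers examined, 2 reached 1 FPKM in every library of both groups, and 4 to 6 were listed at 0. Their summed level was 13.8 to 15.4 FPKM in NC and 10.3 to 12.9 in P_ES50, and the hypertrophy genes Nppa, Myh7 and Actc1 did not pass the filter on low values. The 10 skeletal myoblast markers summed to more, 128 to 130 FPKM in NC and 132 to 136 in P_ES50. Of these, 4 reached 1 FPKM in each NC library and 3 or 4 in a P_ES50 library. Fibroblast markers summed to 2883 to 3016 FPKM in NC and 2818 to 3203 in P_ES50, but that sum holds opposite changes: of 6 tested members, 3 fell and 1, Col1a2, rose. Smooth muscle markers summed to 2207 to 2397 FPKM in NC and 2808 to 2877 in P_ES50, and their part in the results was not tested. The 8 leukocyte markers summed to 1.94 to 3.59 FPKM and the 6 endothelial markers to 0.365 to 0.986 FPKM over both groups, so RNA of those cell types was near absent.

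Among protein-coding nuclear genes with a symbol, at least 5 FPKM in the higher group and libraries that did not overlap, the largest increases after PE and 50 pulses were those of Hmox1, Gdf15, Akr1b8, Phlda1 and Ier3. The largest decreases were those of Ackr3, Bmf, Fos, Dusp1 and Klf4. The changes were widespread and mostly small. Limma called 4102 of 11883 nuclear genes (34.5%) at an adjusted p under 0.05, of which 1986 (16.7%) rose and 2116 (17.8%) fell. The median size of a called change was 0.29 on the log2 scale, and 88.6% of called genes changed by less than 1.5-fold. A rise of at least 2-fold was called for 51 genes (0.429%) and a fall of that size for 70 (0.589%). Small RNA genes, which poly(A) libraries capture poorly, made up 15 of those 51 and 34 of those 70, against 618 of all 11883 tested. Protein-coding genes made up 35 and 34. The 3 P_ES50 libraries lay above the 3 NC libraries for 2443 genes (20.6%) and below them for 2589 (21.8%). Non-overlap was a condition for naming the largest changes, so for those genes it is no further support where it is restated below. The count also depends on the libraries in the fit: with only the 6 compared libraries, limma called 2844 genes, 1428 higher and 1416 lower. With total-read scaling, limma called 43 higher and 10264 lower genes, so the balance between directions depends on the scaling. The order of the genes is what the following paragraphs describe.

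**Figure D1:**
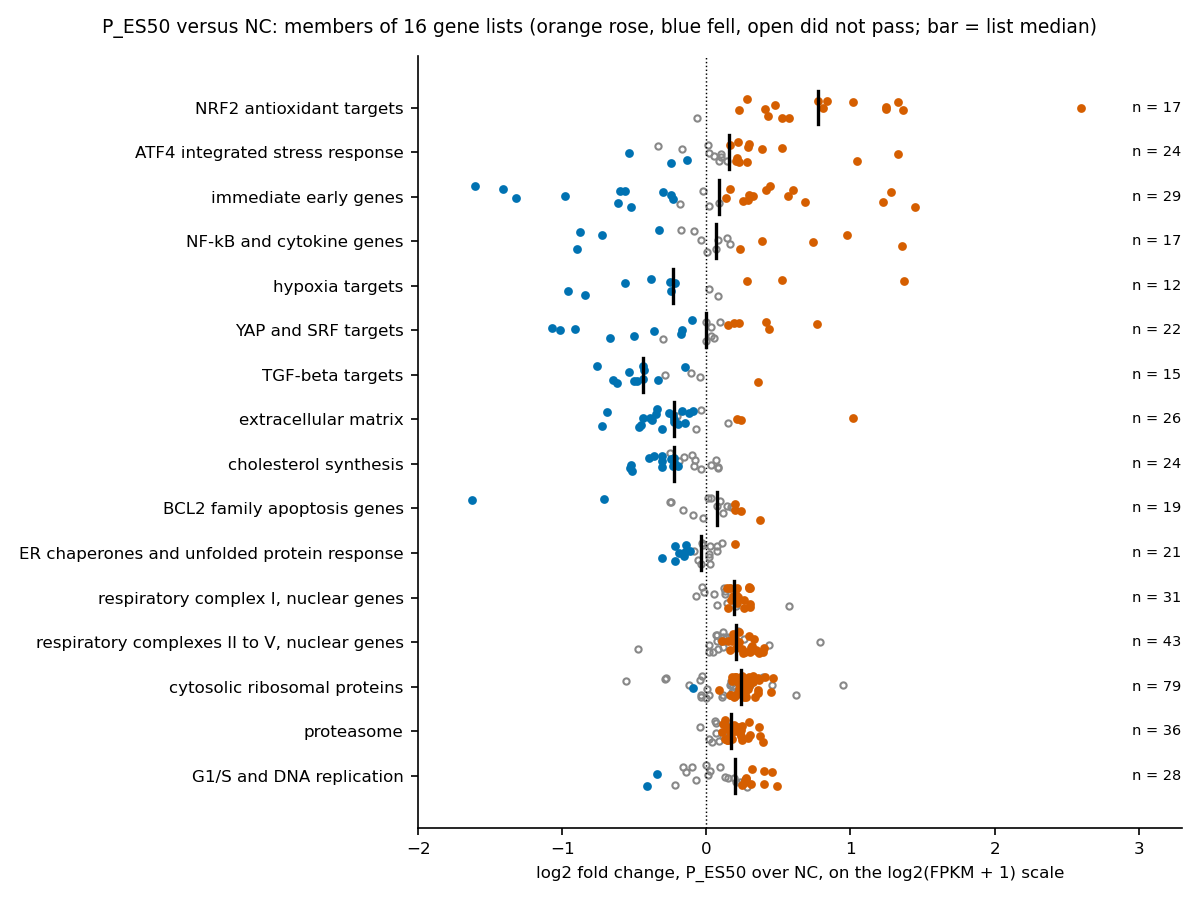
Each point is 1 tested gene, placed by its log2 fold change in P_ES50 over NC on the log2(FPKM + 1) scale. Rows are 16 gene lists, the bar is the list's median, the dotted line is the median of all nuclear genes tested, and colour marks genes with an adjusted p under 0.05 (orange higher, blue lower). The NRF2 list lies to the right with a median of 0.78, TGF-beta targets lie to the left with a median of -0.44, and immediate early genes spread from -1.61 to 1.45.

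NRF2 target genes, which make and use glutathione and thioredoxin and break down haem, rose together. Of 17 tested members, 16 rose, none fell, and 6 rose at least 2-fold, against 16.7%, 17.8% and 0.429% of all nuclear genes. The first 2 of these shares are what the counts of every list against NC are to be read against. The median log2 fold change of the NRF2 list was 0.78, and -0.01 with total-read scaling, where the median of all nuclear genes was -0.62. Hmox1, which encodes the haem-degrading enzyme heme oxygenase 1 (Rnor_6.0, chromosome 19, 14508616 to 14515456, plus strand), measured 326, 321 and 341 FPKM in the NC libraries. In the P_ES50 libraries it measured 1978, 2019 and 2012 FPKM. The groups are far apart, and the log2 fold change of 2.60 (SE 0.05, limma adjusted p 4.5e-12) was the largest increase among the genes eligible for naming.

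Slc7a11, the cystine importer that feeds glutathione synthesis, measured 3.62, 3.3 and 3.51 FPKM in NC and 10.2, 10.3 and 10.3 in P_ES50. Its log2 fold change was 1.33 (SE 0.06, limma adjusted p 5.0e-09). Every P_ES50 library lay above every NC library. Nqo1, a quinone reductase, rose by 1.25 (SE 0.04), from a mean of 149 FPKM ± 6.23 (SD, n = 3) to 356 ± 16.2 (SD, n = 3). Srxn1, which repairs oxidised peroxiredoxins, rose by 1.24 (SE 0.05), and Txnrd1, thioredoxin reductase, by 1.01 (SE 0.03). Osgin1, an oxidative stress response gene singled out after its values were seen, rose by 1.36 from a low level of 0.822 FPKM ± 0.144 (SD, n = 3). Gsta4, a glutathione transferase, was the member that did not pass (log2 fold change -0.06). Akr1b8, an aldo-keto reductase outside the list, measured 83.9, 86.2 and 80.8 FPKM in NC and 270, 283 and 289 in P_ES50, a log2 fold change of 1.73 (SE 0.05, limma adjusted p 5.0e-11).

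NRF2 binds the antioxidant response element, whose core was searched as TGACNNNGC on both strands in the 250 bases before each gene start in the RefSeq promoter table (GRCr8). The table held 14 of the 17 tested members, and 4 of these 14 carried a match, against 10.1% of all 33469 promoters in the table. A member counted if any of its starts had a match, whereas the 10.1% is a share of single promoters. Txnrd1 had 2 starts in the table, of which 1 matched. The promoters of Gclm and Prdx1 are shown because both carry a match and both genes rose; they were chosen after their values were seen, and the capitals mark the match.
Gclm, chr2:213031885-213032134, plus strand: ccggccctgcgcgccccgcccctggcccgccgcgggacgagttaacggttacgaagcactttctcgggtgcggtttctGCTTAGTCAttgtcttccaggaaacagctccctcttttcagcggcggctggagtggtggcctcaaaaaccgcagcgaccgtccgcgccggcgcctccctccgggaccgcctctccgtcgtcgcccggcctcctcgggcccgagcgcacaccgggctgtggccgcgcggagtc
Prdx1, chr5:135383656-135383905, plus strand: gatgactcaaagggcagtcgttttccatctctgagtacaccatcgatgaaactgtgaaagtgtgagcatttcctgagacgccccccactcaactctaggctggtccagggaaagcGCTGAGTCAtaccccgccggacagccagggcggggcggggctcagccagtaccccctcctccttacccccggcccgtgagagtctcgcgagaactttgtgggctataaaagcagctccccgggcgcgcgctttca
Gclm, the regulatory subunit of the enzyme that starts glutathione synthesis, measured 7, 7.76 and 7.59 FPKM in NC and 12.8, 14.5 and 14.2 in P_ES50, a log2 fold change of 0.81 (SE 0.08, limma adjusted p 8.8e-06). Prdx1, a peroxiredoxin that removes hydrogen peroxide, measured 217, 204 and 206 FPKM in NC and 314, 304 and 316 in P_ES50, a log2 fold change of 0.57 (SE 0.04, limma adjusted p 2.8e-07). The 3 treated libraries lay above the 3 untreated ones for both genes. A match describes letters in this window and says nothing of binding. Slc7a11, Nqo1 and Srxn1 had no match in the window.

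**Figure D2:**
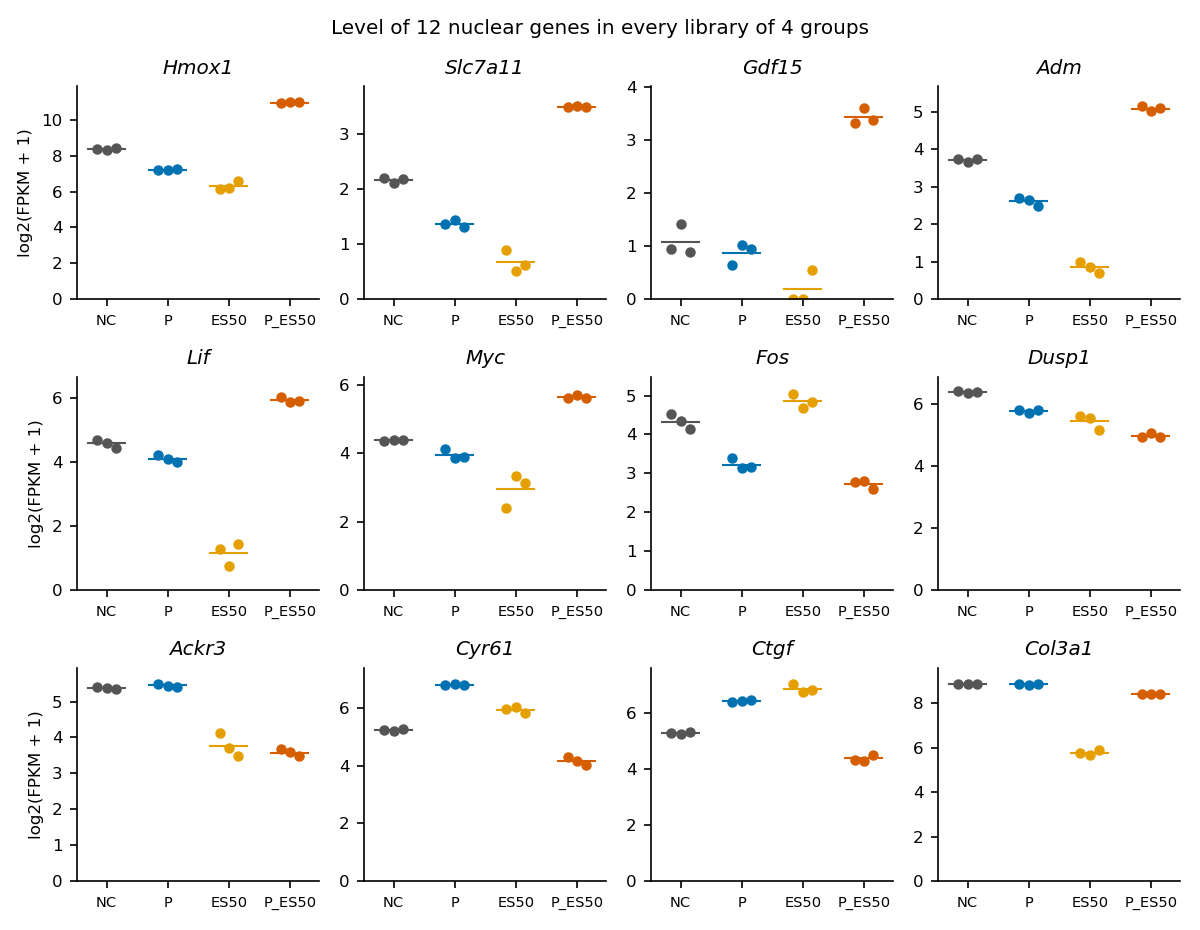
Level of 12 genes as log2(FPKM + 1) on the vertical axis, for each library (points) of NC, P, ES50 and P_ES50, with the group mean as a line. P_ES50 stands above the other 3 groups for Hmox1, Slc7a11, Gdf15, Adm, Lif and Myc, and below them for Fos, Dusp1, Cyr61 and Ctgf. ES10 and P_ES10 are not drawn. Mean Myc was 39.4 FPKM in ES10 and 44.7 in P_ES10, against 49.3 in P_ES50. Mean Lif was 24.3 FPKM in ES10 and 27.5 in P_ES10, against 60.8 in P_ES50.

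Genes of the ATF4 programme rose in part. Of 24 tested members 12 rose and 3 fell, and the median was 0.15 (-0.56 with total-read scaling). With all 18 libraries in the fit 6 rose and 1 fell, where 8.94% and 8.57% of all nuclear genes did. Slc7a11 belongs to this list as well as to the NRF2 list. Chac1, which degrades glutathione, rose by 0.52 and Mthfd2, a mitochondrial folate enzyme, by 0.39. The stress transcription factors moved less: Atf3 rose by 0.29 and Ddit3 by 0.22, and with all 18 libraries in the fit the adjusted p was 0.28 for Atf3 and 0.46 for Ddit3. Over all the settings tried it ran from 0.00043 to 0.28 for Atf3 and from 1.7e-06 to 0.46 for Ddit3. Slc38a2, an amino acid transporter of the same programme, fell by 0.54. Of 21 tested chaperones and unfolded protein response genes of the endoplasmic reticulum, 1 rose and 8 fell, with a median of -0.03. Under quantile normalization none of them rose and 14 fell, where 13.7% and 16.7% of all nuclear genes did. Fitting all 18 libraries left 1 that fell. In the mitochondrial stress response, 7 of 11 tested genes rose and none fell, with a median of 0.20 (-0.57 with total-read scaling), and 3 rose with all 18 libraries in the fit. Its largest change was that of Gdf15, a secreted stress cytokine, which measured 0.918, 1.65 and 0.855 FPKM in NC and 8.93, 11.2 and 9.35 in P_ES50. The log2 fold change was 2.35 (SE 0.15, limma adjusted p 2.0e-07). Atf5, a transcription factor of the same list, rose by 0.34.

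Single cytokine and hypoxia genes changed strongly. The 17 tested genes for cytokines and NF-kB signalling included 5 that rose (29.4%) and 4 that fell (23.5%), not far from the 16.7% and 17.8% of all nuclear genes, and with all 18 libraries in the fit 2 rose and 3 fell. Lif, a cytokine of the interleukin 6 family, measured 25, 23.4 and 21 FPKM in NC and 64.4, 58.4 and 59.6 in P_ES50, a log2 fold change of 1.36 (SE 0.07, limma adjusted p 2.0e-08). Cxcl1, a neutrophil chemokine, measured 63, 60.6 and 59.8 FPKM in NC and 122, 117 and 125 in P_ES50, a log2 fold change of 0.98 (SE 0.04). The groups of Cxcl1 did not overlap. Mean Cxcl1 was 123 FPKM in ES10 and 166 in P_ES10, against 121 in P_ES50. With all 18 libraries in the fit the adjusted p of Cxcl1 was 0.18, the highest among settings whose lowest was 1.8e-11. Ptgs2, the inducible cyclooxygenase, rose by 0.74, whereas Nfkbia, the inhibitor that NF-kB itself induces, fell by 0.87. Among 12 tested hypoxia targets, 3 rose and 7 fell, with a median of -0.23. The risers included Adm, the vasodilator peptide adrenomedullin (NC 12.3, 11.7 and 12.3 FPKM, P_ES50 34.2, 31 and 33.3 FPKM, log2 fold change 1.37, SE 0.06, limma adjusted p 4.2e-09). Vegfa, the endothelial growth factor, rose by 0.53, and Kdm3a, a histone demethylase, fell by 0.56. Of 13 tested interferon response genes, 1 rose (7.69%) and 3 fell (23.1%), again near the shares of all nuclear genes. The fallers included Irf1 by 1.03 and the chemokine Cxcl10 by 0.99.

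Immediate early genes split into a rising and a falling group of nearly equal size. Of 29 tested members, 14 rose and 11 fell, with a median of 0.09 (-0.59 with total-read scaling), and 8 rose and 8 fell with all 18 libraries in the fit. Myc, the growth-promoting transcription factor, measured 19.3, 19.96 and 19.9 FPKM in NC and 48.4, 51.3 and 48.3 in P_ES50, a log2 fold change of 1.28 (SE 0.06, limma adjusted p 3.2e-09). Ier3, a survival gene, rose by 1.45 (SE 0.06), Fosl1, an AP-1 subunit, by 0.60 (SE 0.03) and Egr1, a zinc finger factor, by 0.56 (SE 0.11). The opposite held for Fos, the archetypal AP-1 subunit, which measured 22, 19.3 and 16.6 FPKM in NC and 5.82, 6 and 5.07 in P_ES50. Fos fell by 1.61 on the log2 scale (SE 0.11, limma adjusted p 2.9e-07). Dusp1, the phosphatase that switches off MAP kinases, measured 83, 80.5 and 82.3 FPKM in NC and 29.2, 31.9 and 29.5 in P_ES50, and fell by 1.41 (SE 0.04, limma adjusted p 4.9e-11). Klf4, a Krüppel-like factor, fell by 1.32 (SE 0.08). The AP-1 subunits Fos and Fosl1 thus moved in opposite directions relative to the median nuclear gene in the same 6 libraries. With total-read scaling the changes of Fosl1 and Egr1 turned negative as well. Outside the list, Phlda1 rose by 1.45 (SE 0.04), and Plk3, a stress-responsive kinase, rose by 1.37 (SE 0.07).

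Ackr3, an atypical chemokine receptor that scavenges CXCL12, showed the largest decrease among the genes eligible for naming. It measured 41.3, 40.3 and 39.4 FPKM in NC and 11.7, 11 and 10.2 in P_ES50, and fell by 1.79 (SE 0.05, limma adjusted p 3.4e-11). Further genes of this size were Trib2, a pseudokinase, which fell by 1.27, Irf2bpl by 1.23, Scd2, a fatty acid desaturase, by 1.18, and Bcl9l, a beta-catenin cofactor, by 1.17. Armc7, among the risers, went from 4.55 FPKM ± 0.429 (SD, n = 3) to 12.4 ± 0.765 (SD, n = 3).

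The apoptosis genes Bmf and Bcl2l11 of the BCL2 family fell. As a list the family did not stand apart in these counts: of 19 tested genes, 4 rose (21.1%) and 2 fell (10.5%), near the shares of all nuclear genes (16.7% and 17.8%). Bmf, a BH3-only protein that promotes apoptosis and senses detachment, measured 5.86, 5.99 and 6.71 FPKM in NC and 1.13, 1.27 and 1.6 in P_ES50, and fell by 1.63 (SE 0.11, limma adjusted p 3.7e-07). Bcl2l11, which encodes the BH3-only protein BIM, measured 3.06, 3.04 and 3.36 FPKM in NC and 1.77, 1.33 and 1.53 in P_ES50, and fell by 0.71 (SE 0.08, limma adjusted p 2.2e-05). The libraries of Bcl2l11 did not overlap between the groups. The pore-forming members Bax and Bok rose, by 0.24 and 0.37. The pro-survival gene Bcl2 did not pass (log2 fold change -0.25, SE 0.10, limma adjusted p 0.068). Settings in which it passed included leaving out P_ES50 replicate 1 (0.0098) and removal of the length trend (0.027), in a range of 2.2e-06 to 0.46 over all settings tried. Among 19 tested p53 targets, 6 rose and 8 fell, among them Cdkn1a, the cell cycle inhibitor p21, which rose by 0.28, Gadd45a, which rose by 0.45, and Gadd45b, which fell by 0.67.

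The YAP targets Cyr61, Ctgf and Amotl2 fell, while Ankrd1 and actin genes on the same list rose. Of 22 tested YAP and SRF targets, 6 rose and 9 fell. Under quantile normalization 3 rose and 13 fell, where 13.7% and 16.7% of all nuclear genes did. The letters CATTCC, the core of a TEAD site, were searched on both strands in the 250 bases before each start. They were present in 9 of the 15 members held by the RefSeq table, against 12.1% of all promoters. Again a member counted if any of its starts matched, whereas the 12.1% is a share of single promoters. Acta2, a member that rose, carried a match as well (196 bases before its start). A match describes letters in this window and says nothing of binding or of the direction of a change. The 3 promoters below belong to the 3 members of the list that fell most, and the capitals mark each match in either orientation.
Cyr61, chr2:237225690-237225939, minus strand: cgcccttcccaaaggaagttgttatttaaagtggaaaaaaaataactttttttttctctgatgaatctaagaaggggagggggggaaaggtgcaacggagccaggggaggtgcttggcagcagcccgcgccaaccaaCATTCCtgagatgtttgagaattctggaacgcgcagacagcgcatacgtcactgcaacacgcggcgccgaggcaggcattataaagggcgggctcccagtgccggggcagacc
Ctgf, chr1:22624615-22624864, minus strand: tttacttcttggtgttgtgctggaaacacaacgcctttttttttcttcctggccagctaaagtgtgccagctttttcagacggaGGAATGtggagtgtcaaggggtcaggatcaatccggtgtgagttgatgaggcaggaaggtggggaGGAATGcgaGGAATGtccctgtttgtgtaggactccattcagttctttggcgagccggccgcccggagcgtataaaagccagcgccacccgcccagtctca
Amotl2, chr8:112182376-112182625, plus strand: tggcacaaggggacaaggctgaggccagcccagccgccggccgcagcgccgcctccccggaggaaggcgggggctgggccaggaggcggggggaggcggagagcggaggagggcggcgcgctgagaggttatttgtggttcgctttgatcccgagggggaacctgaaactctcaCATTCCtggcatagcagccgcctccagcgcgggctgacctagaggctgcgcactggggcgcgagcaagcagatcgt
Cyr61, a secreted matricellular protein that RefSeq now calls Ccn1, measured 36.9, 35.9 and 37.9 FPKM in NC and 18.7, 16.9 and 15.5 in P_ES50. It fell by 1.07 (SE 0.06, limma adjusted p 2.9e-08). Ctgf, the connective tissue growth factor now called Ccn2, measured 37.8, 37.3 and 38.3 FPKM in NC and 19.1, 18.5 and 21.4 in P_ES50. It fell by 0.91 (SE 0.06, limma adjusted p 1.0e-07). Amotl2, an angiomotin that restrains YAP and is induced by it, measured 14.3, 14.6 and 14.9 FPKM in NC and 7.31, 6.81 and 6.04 in P_ES50, and fell by 1.02 (SE 0.06). All 3 genes had groups that did not overlap. Ankrd1, a cardiac ankyrin repeat protein that is also a YAP target, went the other way, from 70.5, 65.8 and 64.1 FPKM to 116, 106 and 122 (log2 fold change 0.77, SE 0.06, limma adjusted p 7.3e-07, and -0.01 with total-read scaling). Acta2, smooth muscle actin, rose by 0.41 (SE 0.03, -0.37 with total-read scaling), and its adjusted p no longer passed with quantile normalization. Acta2 belongs to the smooth muscle marker list whose sum was higher in P_ES50.

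PE alone moved Cyr61 and Ctgf in the other direction from the joint treatment. P libraries measured 112, 113 and 110 FPKM for Cyr61 and 82.4, 84.7 and 87.2 FPKM for Ctgf, all above every NC library. Relative to P, Cyr61 was lower in P_ES50 by 2.65 and Ctgf by 2.05 on the log2 scale (limma adjusted p 1.6e-12 and 1.3e-11). ES50 libraries measured 61.3, 64.3 and 56.4 FPKM for Cyr61 and 129, 106 and 112 FPKM for Ctgf. Relative to ES50 the log2 fold changes were -1.77 and -2.49, but total-read scaling turns them to 0.81 and 0.19. P_ES50 was thus the lowest of the 4 groups for both genes on the deposited scale.

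TGF-beta targets and matrix genes fell. Of 15 tested TGF-beta targets, 11 fell and 1 rose, with a median of -0.44, against -0.0027 for all nuclear genes. Id1, a SMAD-induced inhibitor of differentiation, measured 51.8, 51.3 and 47.6 FPKM in NC and 35, 30.9 and 29.2 in P_ES50, and fell by 0.65 (SE 0.07, limma adjusted p 2.8e-05). Ltbp2, which binds matrix microfibrils, fell by 0.33 (SE 0.03). A pair of members singled out after their values were seen are the ligand Tgfb1, which fell by 0.48 (SE 0.09), and the feedback inhibitor Smad7, which fell by 0.43 (SE 0.05, adjusted p 0.052 with all 18 libraries in the fit and under that in every other setting). Tgif1, a corepressor of SMAD factors, was the member that rose (0.36, SE 0.04, and -0.42 with total-read scaling). With the length trend described below removed, 11 members fell and 1 rose, where 14.1% and 16.1% of all nuclear genes did. The list's median was then -0.42.

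Extracellular matrix genes included 19 of 26 tested members that fell and 3 that rose, with a median of -0.22 (-0.99 with total-read scaling). Col3a1, a fibrillar collagen, measured 468, 461 and 463 FPKM in NC and 341, 335 and 338 in P_ES50. It fell by 0.46 (SE 0.02, limma adjusted p 8.1e-09), and the groups did not overlap. Col6a3 fell by 0.73 (SE 0.06) and Col5a3 by 0.69 (SE 0.05), and Fn1, fibronectin, fell from 1148 FPKM ± 17.8 (SD, n = 3) to 927 ± 15.9 (SD, n = 3). Col1a1 fell by 0.22 (SE 0.03, limma adjusted p 0.00017). Its partner chain Col1a2 measured 455, 367 and 327 FPKM in NC and 521, 920 and 952 in P_ES50, a log2 fold change of 1.02 with an SE of 0.28 (limma adjusted p 0.012). The 3 P_ES50 values of Col1a2 lay above the NC values but spread widely, unlike those of Col3a1.

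Matrix genes are long, with a median length of 5326 bases among the tested members, and the fold changes moved with gene length. With all nuclear genes split by length into 5 groups of near equal size, 6.73% fell in the group of 42 to 1062 bases and 34.7% in the group of 3798 to 29464 bases. The shares that rose were 18.4% and 8.75%. The median log2 fold change went from 0.10 in the shortest group to -0.10 in the longest. With the trend removed from each library, 17 matrix genes fell and 3 rose, where 14.1% and 16.1% of all nuclear genes did. The matrix median was then -0.14, while the medians of the 5 length groups lay between 0.00 and 0.04. With the trend removed, 38 cytosolic ribosomal protein genes rose in place of 51, 6 complex I genes in place of 17, and 16 NRF2 genes as before.

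**Figure D3:**
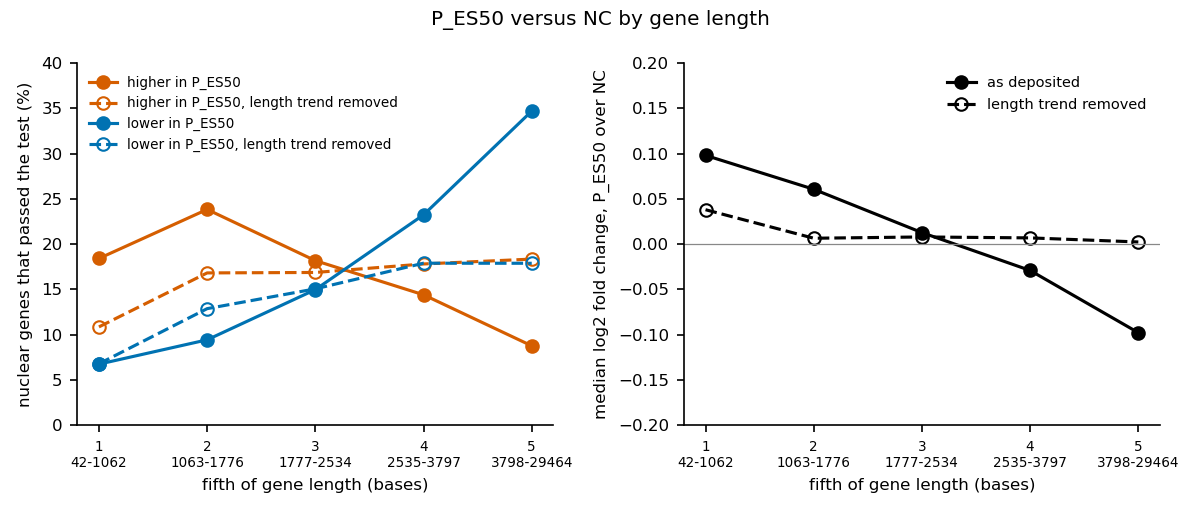
Left, share of nuclear genes that rose or fell in P_ES50 versus NC in 5 groups of gene length in bases, as deposited (filled points) and with the trend against length removed (open points). Right, median log2 fold change of the same groups. It goes from 0.10 in the shortest to -0.10 in the longest, and stays between 0.00 and 0.04 with the trend removed.

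Cholesterol synthesis genes, the enzymes and regulators of the sterol pathway controlled by SREBP2, fell in 13 of 24 tested cases and rose in none. Their median was -0.22 (-0.86 with total-read scaling), and 12 fell and 1 rose with the length trend removed. Msmo1, a sterol demethylase, measured 61.3, 58.6 and 58.8 FPKM in NC and 40.8, 43 and 40.3 in P_ES50, and fell by 0.52 (SE 0.04, limma adjusted p 5.1e-07). Cyp51 fell by 0.36, Sqle, which makes squalene epoxide, by 0.31 and Hmgcs1 by 0.30. With all 18 libraries in the fit, 8 members fell, and the adjusted p was 0.14 for Sqle, the highest of the settings tried. Relative to P, 10 members rose (41.7%) and 5 fell (20.8%), against 21.4% and 23.6% of all nuclear genes in that comparison. Sqle was higher than in P by 0.13 and Cyp51 by 0.18 (-0.71 and -0.68 with total-read scaling), and Msmo1 fell by 0.58. With only the P_ES50 and P libraries in the fit neither Cyp51 (adjusted p 0.057) nor Sqle (0.056) passed over P. Sqle did not pass over P with all 18 libraries (0.53) or with quantile normalization (0.057) either.

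Ribosomal protein, proteasome and respiratory chain genes rose by small amounts. Of 79 tested cytosolic ribosomal protein genes 51 rose and 1 fell, with a median of 0.24 (-0.53 with total-read scaling, and 24 risers with quantile normalization). Rps3 rose by 0.27 and Rpl28 by 0.29. Proteasome subunits rose in 27 of 36 cases and fell in none (median 0.17, or -0.59 with total-read scaling), with Psmd7 at 0.37 and Psmd11 at 0.36, and quantile normalization left 8 risers and all 18 libraries in the fit 16. Nuclear genes of respiratory complex I rose in 17 of 31 cases and those of complexes II to V in 23 of 43, and none fell (medians 0.19 and 0.21, or -0.57 and -0.58 with total-read scaling). With quantile normalization 5 and 9 rose, where 13.7% of all nuclear genes did. The complex I count was also 5 with all 18 libraries in the fit (8.94% of all nuclear genes) and 6 with the length trend removed (16.1%), so the distance of complex I from all nuclear genes, 54.8% against 16.7%, depends on these settings. Of 17 tested glycolysis genes 5 rose and 3 fell, with a median of -0.00041, and of 15 TCA cycle genes 3 rose (20%) and none fell. Examples are Ndufs4 of complex I at 0.30, Cox5a of cytochrome oxidase at 0.40 and Atp5g3 of ATP synthase at 0.40. Cpt1a, which carries fatty acids into mitochondria, measured 13.6, 14.2 and 14.5 FPKM in NC and 29.5, 30.6 and 30.3 in P_ES50, a log2 fold change of 1.04 (SE 0.04, limma adjusted p 1.0e-09). It was the largest change of the fatty acid oxidation list, in which 9 of 17 rose and 1 fell. Replication genes rose in 11 of 28 cases and fell in 2, among them the helicase subunits Mcm5 (0.45) and Mcm6 (0.40).

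Of 11 tested sarcomere and hypertrophy genes, 1 rose and 4 fell, among them skeletal actin Acta1, which fell by 0.59 (SE 0.07), and cardiac troponin Tnnt2, which fell by 0.41 (SE 0.10). Nppb, the natriuretic peptide precursor used as a hypertrophy marker, measured 2.82, 1.74 and 2.14 FPKM in NC and 2.05, 0.906 and 1.39 in P_ES50. The groups overlapped and the change of -0.41 (SE 0.15) did not pass (limma adjusted p 0.055). Settings in which it passed included leaving out NC replicate 2 (0.033) or P_ES50 replicate 1 (0.0079). It also passed with scaling to nuclear reads and with the length trend removed. Over all settings tried the adjusted p of Nppb ran from 5.3e-05 to 0.21. Vdac1, a channel of the outer mitochondrial membrane, measured 28.9 to 32.4 FPKM in NC and 33.9 to 36.4 in P_ES50 and did not pass (0.18, SE 0.07, limma adjusted p 0.070).

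Relative to PE alone, PE and pulses raised Hmox1, Adm, Gdf15 and Slc7a11 and lowered Ackr3, Cyr61, Ctgf and Amotl2. This comparison uses the same P_ES50 libraries as the one with NC, so the 2 are not independent. Limma called 5353 nuclear genes (45.0%), 2548 higher (21.4%) and 2805 lower (23.6%). Hmox1 was 144, 148 and 154 FPKM in P, so its log2 fold change over P was 3.74 (SE 0.05, limma adjusted p 4.4e-14), and Adm, at 5.44, 5.25 and 4.63 FPKM in P, rose by 2.47. Slc7a11 rose by 2.13, Akr1b8 by 2.13 and Gdf15 by 2.56. Of the 17 NRF2 members, 16 rose over P and none fell. Ackr3, at 44.1, 42.5 and 41.4 FPKM in P, fell by 1.87, and Amotl2 by 1.68. On the YAP and SRF list as a whole, 8 of 22 were higher than in P and 11 lower. Klf4 was already low in P (5.19, 6.56 and 5.02 FPKM) and its change from P to P_ES50 did not pass (-0.14, SE 0.08, limma adjusted p 0.18). Fos and Dusp1 were intermediate in P, and fell further in P_ES50 by 0.50 and 0.79. Egr1, lower in P than in NC, rose by 1.59 over P.

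The distance to 50 pulses alone was larger. Limma called 8262 nuclear genes between P_ES50 and ES50 (69.5%), 4494 higher (37.8%) and 3768 lower (31.7%), and with total-read scaling 11057 higher and 9 lower. The median absolute log2 fold change was 0.17 against NC, 0.20 against P and 0.60 against ES50, and 1.43%, 2.25% and 24.7% of nuclear genes lay beyond 2-fold. The ES50 libraries hold 91.4% to 92.9% mitochondrial reads and correlate with each other at 0.945 to 0.952, below the other groups. P_ES50 was higher than ES50 in Adgre5, an adhesion receptor, by 5.25, Cxcl1 by 5.26 (SE 0.47), Lif by 4.79 and Hmox1 by 4.66. ES50 levels were low for Adgre5 (0.869, 0.367 and 2.60 FPKM), Cxcl1 (2.92, 0 and 7.35) and Lif (1.42, 0.683 and 1.72). The sizes of these differences are therefore imprecise. P_ES50 was lower in Tgfb3 by 3.23 (54.8, 50.4 and 50.6 FPKM in P_ES50 against 488, 478 and 517 in ES50). Ankrd1 was lower by 3.18 and Palld, an actin-bundling protein, by 3.10. Of the matrix genes, 25 of 26 tested were higher in P_ES50 than in ES50, Col3a1 by 2.63 and Fn1 by 2.09. Ackr3 (16.5, 12 and 10.1 FPKM in ES50) did not pass between P_ES50 and ES50 (-0.19, limma adjusted p 0.14, and 1.81 with total-read scaling).

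**Figure D4:**
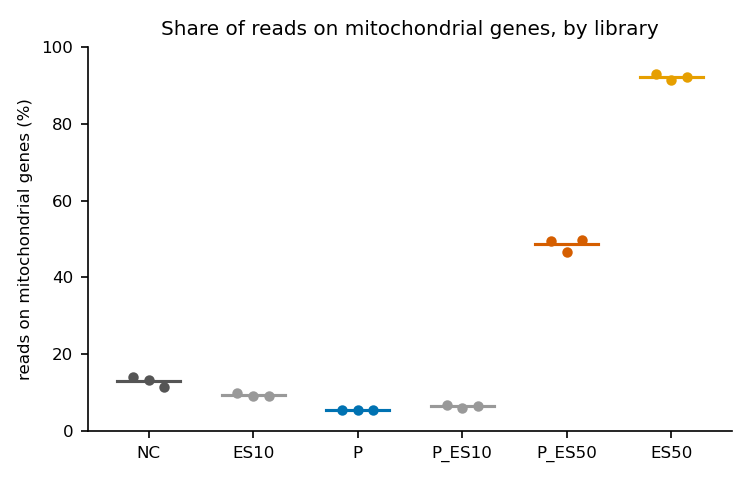
Share of reads on genes that lie on mitochondrial genes, in percent, for each library (points) with the group mean as a line. The P_ES50 libraries sit at 46.7% to 49.6%, between NC at 11.6% to 14.0% and ES50 at 91.4% to 92.9%.

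Mitochondrial genes are described apart. Reads on them made up 14.0%, 13.2% and 11.6% of reads in the NC libraries and 49.5%, 46.7% and 49.6% in the P_ES50 libraries. The difference in means was 35.7 percentage points, and the exact two-sided permutation test gave p 0.1, the smallest that 3 against 3 allows. In the P libraries the mitochondrial share was 5.41% to 5.60%, below NC. Of the 34 tested mitochondrial genes, 22 rose and none fell in P_ES50 against NC, with a median log2 fold change of 1.81. Of the 13 mitochondrial mRNAs among them, 12 rose, with a median log2 fold change of 2.71 (1.92 with total-read scaling). Mt-co1, a cytochrome oxidase subunit, measured 19252, 17842 and 15366 FPKM in NC and 109173, 101780 and 111027 in P_ES50. Mt-nd4l, a complex I subunit, did not pass (0.11, limma adjusted p 0.29). With total-read scaling Mt-nd4l fell by 0.68 (limma adjusted p 4.5e-07) and Mt-nd5, another complex I subunit, no longer passed (0.088 in place of 0.88, adjusted p 0.10).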

How the data were processed

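Poly(A) RNA of 18 H9C2 libraries was measured, 3 in each of 6 groups. The authors deposited FPKM values per gene, which in each library are whole multiples of a per-gene step (100% within 0.01 read), and per the submitters' processing notes the build is Rnor_6.0. For the aligner, the counter and their use of strand, nothing is given in the sources used here. Genes with at least 1 FPKM in 3 of 18 libraries were tested with limma 3.58.1 in R 4.3.3 on log2(FPKM + 1), with group means, a mean-variance trend and Benjamini-Hochberg adjustment over 11917 genes. P_ES50 against NC and against P used the 15 libraries of NC, ES10, P, P_ES10 and P_ES50. ES50 was left out because its libraries hold 1335973 nuclear reads on average against 12965579 in NC. P_ES50 against ES50 used all 18. A fold change is on the log2(FPKM + 1) scale, which understates the change of low genes. The members and gene lists were chosen with earlier results of these data known; the lists are described by counts and medians. Named genes were the largest changes with at least 5 FPKM and non-overlapping libraries, each list's members with the smallest adjusted p-values and a fixed set, apart from those said to have been chosen after their values were seen. Fits were tested on simulated data. Promoters came from RefSeq (GRCr8). Alternatives were other library sets, pseudocounts, filters, scalings, limma voom on recovered reads, a replicate block and left-out replicates. The removal of the length trend, chosen after seeing the data, subtracted a lowess curve (span 0.3) of each library's deviation against gene length. Some list members are counted in their list, and their single values are not reported here.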

Additional observations from a re-analysis of the deposited data

How the results depend on the processing

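The deposited scaling sets the level against which all nuclear changes are read, and P_ES50 libraries hold fewer nuclear reads than NC libraries, which limits precision for low genes. Of 83 genes described for P_ES50 against NC, all kept their direction and their side of the threshold with either other pseudocount, no filter or a filter on the 6 libraries, the 2 groups alone in the fit, or limma voom on the recovered reads. With all 18 libraries in the fit 5 no longer passed, with quantile normalization 4 (Acta2, Bax, Ddit3 and Rps3), and with the length trend removed 1 (2 more passed). Fits with only the 2 groups compared called 2844 nuclear genes against NC, 4193 against P and 6258 against ES50. With all 18 libraries in the fit, 2080 nuclear genes were called against NC and 3342 against P, with the wider spread of ES50 in the estimate. Leaving out 1 replicate at a time gave 3340 to 3848 calls against NC, 4676 to 5123 against P and 7830 to 8470 against ES50, and a difference in the mitochondrial share of 35.0 to 36.7 percentage points. The replicate block gave 4008 calls against NC, 5320 against P and 8257 against ES50. Same-numbered libraries of P_ES50 and NC deviated together with a correlation of 0.0077, 0.014 and 0.021, and differently numbered ones with -0.026 to 0.012. P_ES50 replicates 2 and 3 correlated best with the NC library of their own number, and P_ES50 replicate 1 with NC replicate 2 (0.012). Values this small cannot tell whether same-numbered samples share more than a number. With total-read scaling, 10307 genes were called against NC and 10504 (62 higher, 10442 lower) against P, which follows from the shift of the median gene, and Gclm and Col1a2 no longer passed. Under that scaling the log2 fold change against NC turned negative for the stress genes Chac1 (-0.23), Mthfd2 (-0.38), Ddit3 (-0.55), Atf3 (-0.37), Atf5 (-0.44), Prdx1 (-0.21), Ptgs2 (-0.025) and Vegfa (-0.25). It did so for Fosl1 (-0.18), Egr1 (-0.18), Bax (-0.53), Bok (-0.37), Ankrd1 (-0.011), Acta2 (-0.37), Tgif1 (-0.42), Cdkn1a (-0.50), Gadd45a (-0.33), Mcm5 (-0.29) and Mcm6 (-0.34). The same held for Rps3 (-0.52), Rpl28 (-0.49), Psmd7 (-0.41), Psmd11 (-0.40), Cox5a (-0.38), Atp5g3 (-0.39), Ndufs4 (-0.44) and Vdac1 (-0.58), and against P for Cyp51 (-0.68) and Sqle (-0.71). Against ES50 it turned positive for Cyr61 (0.81), Ctgf (0.19) and Ackr3 (1.81).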
